A study of Mus musculus with 14 samples.

Results

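The genes described here handle the solutes with which the kidney medulla withstands and builds its high osmolality. They are the urea transporter genes Slc14a1 and Slc14a2, the organic osmolyte transporter genes Slc5a3, Slc6a6, and Slc6a12, the aldose reductase gene Akr1b3, and Nfat5. They were chosen by name, by matching each symbol exactly in the gene column of every mouse, and are 7 of the 21878 genes listed there. All 7 passed the filter on low values, which kept the 14912 genes that reached 0.1 FPKM in 3 or more mice. FPKM is a gene's fragment count divided by its transcript length and by the fragments of the library.

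Kidney RNA was sequenced from 4 WT diabetic, 4 Cfb-/- diabetic, 3 WT control, and 3 Cfb-/- control mice, all male and of strain C57BL/6J. Cfb encodes complement factor B, which the alternative complement pathway needs, and the Cfb-/- mice of both arms carried its deletion in the whole body. The diabetic mice ate a high-fat diet (HFD) with 60% of calories from fat for 4 weeks and were then injected with streptozotocin (STZ), which destroys beta cells, at 60 mg/kg on 5 days. The control mice ate chow with 10% of calories from fat and were injected with the citrate buffer (50 mM) alone. By the study's methods the mice were 8 weeks old at the start and were killed 21 weeks after STZ, while the labels give 34 weeks without a starting point. The labels carry the same treatment wording for control and diabetic samples and write knockdown for the deletion, so the groups rest on the sample titles. The tissue is labelled kidney, and which part of the kidney was sampled is not stated. The study's RT-qPCR on these groups used kidney cortex, and whether the sequenced RNA came from the same part is not given.

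Urine is concentrated by a gradient of salt and urea that rises from the cortex into the medulla. Urea leaves the inner medullary collecting duct through transporters encoded by Slc14a2 and is taken up by the descending vasa recta through the transporter encoded by Slc14a1, which red cells also carry. Medullary cells balance the salt outside them by taking up myo-inositol, taurine, and betaine and by making sorbitol from glucose, and the transcription factor NFAT5 switches on these genes when tonicity rises. In diabetes aldose reductase is also known for turning excess glucose into sorbitol.

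NFAT5 binds the tonicity-responsive enhancer, TonE, and promoter windows of some of the members were searched for its 11-base consensus on both strands. RefSeq windows of 300 bases, from 250 before to 50 after a transcript start, were found for Slc5a3 (1 window), Nfat5 (1 window), and Slc6a12 (5 windows) and not for Slc14a1, Slc14a2, Slc6a6, or Akr1b3. The consensus was found in 1 of the 7 windows, that of the first Slc6a12 start, and in 4.96% of the 32851 windows of all genes. The core TGGAAA on either strand was found in 21.4% of them. The 250 bases before that Slc6a12 start (chr6:121342324-121342573, plus strand, GRCm38.p6, RefSeq) are shown because they hold the match, which is in capitals and runs from base -75 to base -65 relative to the start.
Slc6a12: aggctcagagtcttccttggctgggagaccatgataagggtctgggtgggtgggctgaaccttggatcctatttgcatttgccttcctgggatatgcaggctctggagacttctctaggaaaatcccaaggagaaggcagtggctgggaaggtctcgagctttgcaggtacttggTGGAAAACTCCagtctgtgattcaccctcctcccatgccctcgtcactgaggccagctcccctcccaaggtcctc
A match of letters is not a measured binding site, and no binding was measured in these mice.

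The positions are those of RefSeq on GRCm38.p6, the build named for these data. Slc14a1 (chromosome 18, 78100091 to 78142119) and Slc14a2 (chromosome 18, 78146144 to 78596950) lie in tandem, with 4024 bases between them. Akr1b3 (34303930 to 34317489), Slc6a6 (91684048 to 91759063), and Slc6a12 (121342574 to 121365773) all lie on chromosome 6. Nfat5 spans 107293435 to 107379517 on chromosome 8. Slc5a3 (92058322 to 92087473 on chromosome 16) shares 29138 bases with Mrps6, a mitochondrial ribosomal protein gene on the same strand whose level was 54.9 to 146 FPKM. How reads in that shared stretch were divided is not given in the sources used here, so the Slc5a3 values are uncertain to that extent, and the same holds for reads that fit both urea transporter genes.

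For the series as a whole, FPKM sums were 330246 to 488196 per mouse, and absolute depth is unknown. Relative depth was estimated as the median ratio of low values between Cfb-/- diabetic mouse 1 and each mouse. It lay between 0.846 and 1, but ratios far from 1 were left out first, which limits how far it could range. Cfb was at 56.7 to 131 FPKM in the 7 WT mice and at 1.13 to 2.22 FPKM in the 7 Cfb-/- mice, as their titles state. In diabetic mice the median of all tested genes was itself higher, by 0.29 in WT and by 0.22 in Cfb-/- mice on the log2 scale, and members are also given relative to that shift. The collecting duct marker Aqp2 (87.2 to 469 FPKM) and the thick limb marker Umod (383 to 1500 FPKM) were present in every mouse.

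The genes ran from under 1 to over 60 FPKM on average. Over the 14 mice the mean level was 62.5 FPKM for Slc6a6, 39.2 for Akr1b3, 16.0 for Slc5a3, 7.11 for Nfat5, 6.16 for Slc14a2, 1.01 for Slc6a12, and 0.962 for Slc14a1. Each of these ranges overlapped that of its neighbour in the order, so the order is one of means. Slc14a2 exceeded Slc14a1 in 10 of the 14 mice and lay below it in 4.

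Slc14a2 encodes the urea transporter of the collecting duct and thin limbs. Its level was 0.111, 25.7, 16.4, and 2.78 FPKM in WT diabetic mice 1 to 4, and 0.120, 3.93, and 0 FPKM in WT control mice 1 to 3. In Cfb-/- diabetic mice it was 0.696, 0.161, 3.55, and 9.91 FPKM, and in Cfb-/- control mice 5.95, 1.39, and 15.5 FPKM. The highest mouse exceeded the lowest 232 times within WT diabetic, 61.4 times within Cfb-/- diabetic, and 11.2 times within Cfb-/- control mice, and no pair of groups was separated.

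Slc14a1, the urea transporter gene of vasa recta and red cells, was lower but ordered the mice much alike. It stood at 0.215, 3.30, 2.99, and 0.718 FPKM in WT diabetic mice, and at 0.223, 0.389, and 0.0552 FPKM in WT control mice. In Cfb-/- diabetic mice its level was 0.356, 0.288, 0.711, and 1.24 FPKM, and in Cfb-/- control mice 0.765, 0.351, and 1.86 FPKM. WT diabetic mice 2 and 3 were again the highest of all, and WT diabetic mouse 1 lay within the WT control range.

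Slc6a12 encodes the betaine transporter. WT diabetic mice had 0.120, 3.11, 4.61, and 0.634 FPKM, and WT control mice had 0, 0.352, and 0 FPKM. The Cfb-/- diabetic mice had 0.307, 0.217, 0.996, and 1.85 FPKM, and the Cfb-/- control mice 0.307, 0.0534, and 1.60 FPKM. It was listed at 0 in 2 mice, so its fold changes depend on the value added before the logarithm.

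Slc5a3 encodes the sodium-dependent myo-inositol transporter and was readily measured in every mouse. WT diabetic mice had 11.4, 29.0, 34.0, and 14.6 FPKM, all above the 9.80, 4.93, and 4.25 FPKM of WT control mice. Cfb-/- diabetic mice (12.4, 12.1, 18.9, and 23.5 FPKM) lay within the range of Cfb-/- control mice (11.1, 9.06, and 28.9 FPKM). Slc6a6, the taurine transporter gene, was the most abundant member and among the steadiest. Its level was 70.1, 87.0, 78.7, and 60.7 FPKM in WT diabetic and 64.0, 36.1, and 42.2 FPKM in WT control mice, and 61.7, 54.0, 76.8, and 78.0 FPKM in Cfb-/- diabetic and 74.2, 32.6, and 59.5 FPKM in Cfb-/- control mice.

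Akr1b3 encodes aldose reductase. Its level was 23.1, 122, 71.4, and 27.9 FPKM in WT diabetic mice, while the WT control mice lay at 29.2, 35.5, and 24.9 FPKM. Cfb-/- diabetic mice lay close together at 22.4, 24.5, 23.6, and 27.3 FPKM, and Cfb-/- control mice at 50.1, 22.8, and 44.7 FPKM. The WT diabetic mean of 61.1 ± 46.0 FPKM (SD, n = 4) thus rested on mice 2 and 3, and each of the other 2 lay below at least 4 of the 6 control mice.

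Nfat5 encodes the regulator. Its level was 8.57, 8.86, 8.07, and 7.39 FPKM in WT diabetic and 5.72, 2.28, and 5.13 FPKM in WT control mice, and the groups did not overlap. It was 9.46, 8.73, 8.77, and 7.47 FPKM in Cfb-/- diabetic and 6.80, 5.28, and 7.03 FPKM in Cfb-/- control mice, again without overlap. WT control mouse 2 was the lowest of all, and the 8 diabetic mice were the 8 highest. How many of all tested genes order the mice in this way was not counted.

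**Figure D1:**
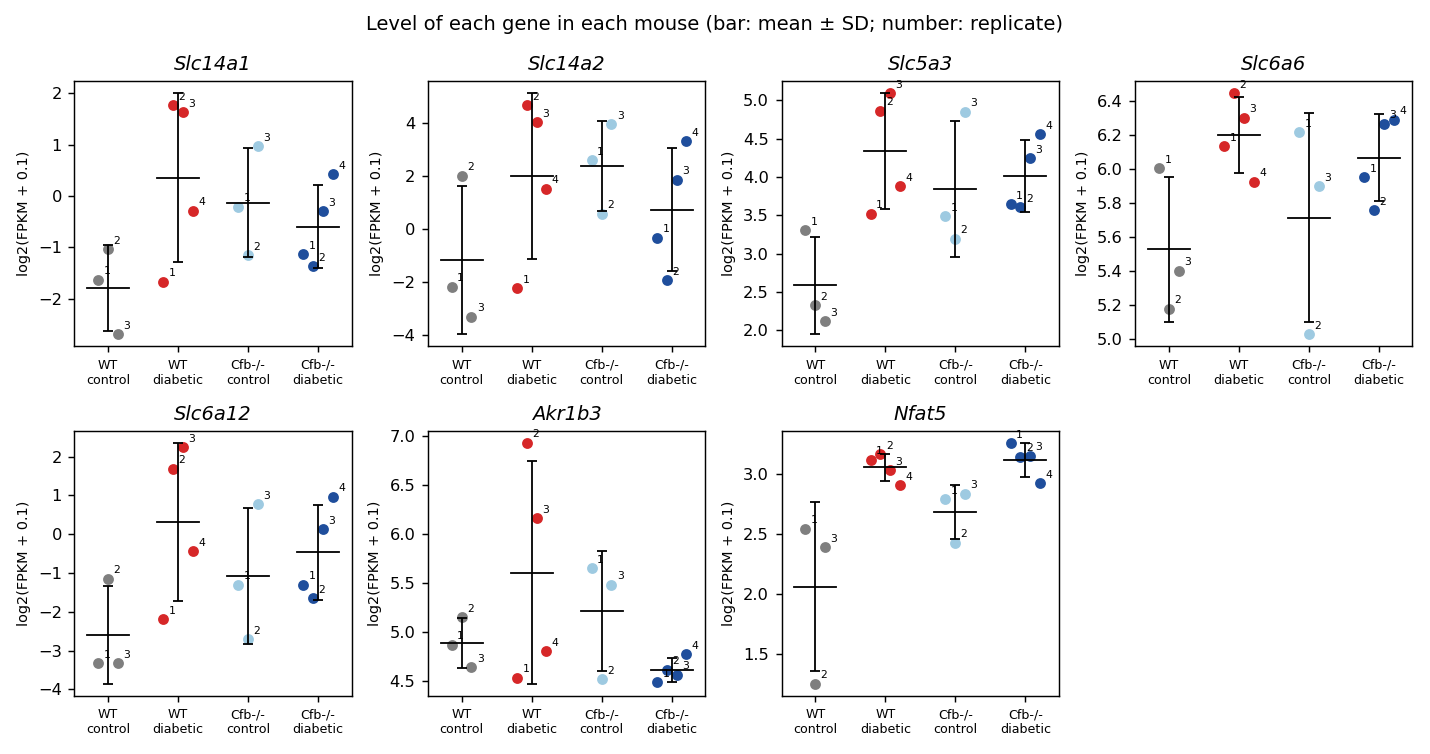
Each panel plots a gene's log2(FPKM + 0.1) in the 14 mice by group, with the replicate number beside each point, a line at the group mean and bars of 1 SD. WT diabetic mice 2 and 3 are the 2 highest in 6 of the 7 panels, while in the Nfat5 panel all diabetic mice lie above all control mice.

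The spread between mice of the same group was the most marked feature of these genes. The SD of log2(FPKM + 0.1) within groups was 2.60 for Slc14a2, the largest of all 14912 tested genes. It was 1.62 for Slc6a12 (rank 14) and 1.17 for Slc14a1 (rank 70), against a median of 0.24 over all tested genes. Akr1b3 and Slc5a3 both had an SD of 0.69, larger than in 96.9% and 96.8% of the tested genes. Slc6a6 (0.38) and Nfat5 (0.35) lay closer to the median. Slc14a2, Slc6a12, and Slc14a1 all include mice near or at 0 FPKM, and how much of the spread is counting error is unknown without read counts.

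**Figure D2:**
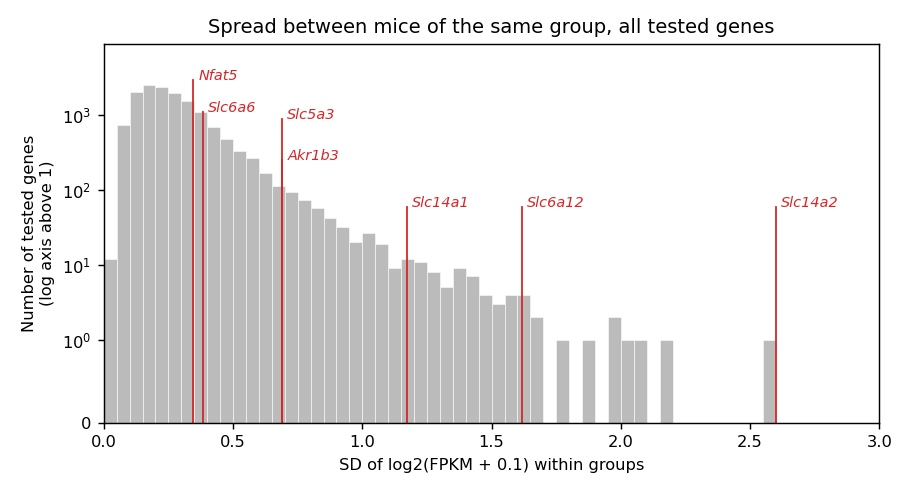
The bars count the tested genes (vertical axis, logarithmic above 1) by the SD of log2(FPKM + 0.1) within groups (horizontal axis), and red lines mark the 7 genes at heights chosen only for legibility. Slc14a2 stands alone at 2.60, while Nfat5 and Slc6a6 lie in the body of the distribution.

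Several of the genes deviated together from mouse to mouse. Deviations of log2(FPKM + 0.1) from the group mean were correlated over the 14 mice, and p-values came from 100000 permutations of mice within groups, adjusted (Benjamini-Hochberg) over the 98 relations between members and with marker lists. Slc14a1 and Slc14a2 deviated together (r = 0.94, permutation p = 6e-05, adjusted p = 0.00549, and rho = 0.90, permutation p = 6e-05, adjusted p = 0.00588), with r = 0.90 without the 2 mice farthest from the median. So did Slc14a1 and Slc6a12 (r = 0.96, permutation p = 0.00022, adjusted p = 0.00549, and rho = 0.91, permutation p = 0.00116, adjusted p = 0.0117), with r = 0.96 without those 2. Slc14a2 and Slc6a12, genes on different chromosomes, gave r = 0.95 (permutation p = 0.00022, adjusted p = 0.00549) and rho = 0.88 (permutation p = 0.00033, adjusted p = 0.0096), and r = 0.93 without the 2 farthest mice. All 15 pairs among the genes other than Nfat5 had a positive r, from 0.34 to 0.96 with a median of 0.74, and 5 of the 15 passed an adjusted p of 0.05 by r and 9 by rho. Of the 5 pairs that hold Slc6a6, with r from 0.34 to 0.63, 0 passed by r or by rho.

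For Nfat5, r with the other 6 genes ran from -0.41 (Slc14a2) to 0.55 (Slc6a6), and 0 of the 6 permutation tests passed after adjustment, with adjusted p-values from 0.308 to 0.946. A relation that misses the threshold over 14 mice is not shown to be absent, and whether Nfat5 differs in this from the other genes was not tested. Ranked over all 14 mice, WT diabetic mice 2 and 3 held ranks 13 and 14 for each of the 6 transporter and enzyme genes. The mice behind them varied from gene to gene, with ranks of 7 to 12 for Cfb-/- diabetic mouse 4 and of 5 to 12 for Cfb-/- control mouse 3. WT control mouse 3 had the lowest mean rank over the 6 genes, 2.25.

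**Figure D3:**
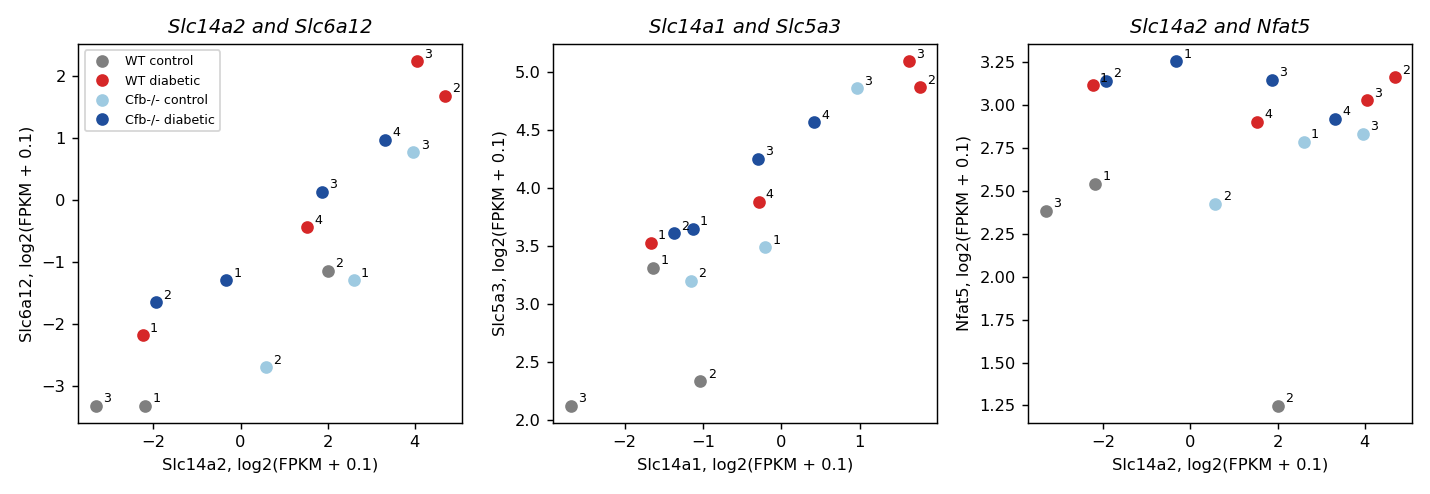
Each point is a mouse, coloured by group and numbered by replicate, and both axes are log2(FPKM + 0.1). Slc14a2 with Slc6a12 and Slc14a1 with Slc5a3 rise together through all 4 groups, whereas Nfat5 separates diabetic from control mice at any level of Slc14a2.

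The deviations were also set against lists of genes that mark parts of the kidney and other cells, each list as the mean over its genes. In bulk tissue a larger or smaller part of the medulla in the sample, more or fewer cells of a type, and more or less RNA per cell cannot be told apart. With medulla-enriched markers (Cryab, Ptgs1, Wnt7b, and Aqp4), Slc14a1 had r = 0.82 (permutation p = 0.0006, adjusted p = 0.0084, and rho = 0.83, permutation p = 0.00141, adjusted p = 0.0117), with r = 0.81 without the 2 farthest mice. The 6 genes other than Nfat5 had r from 0.50 to 0.82 with this list, and 2 of the 6 passed by r and 4 by rho. They had r from 0.66 to 0.85 with thick limb markers (4 of 6 passed by r) and from 0.46 to 0.86 with urothelium markers (3 of 6). With markers of the distal convoluted and connecting tubule, which lie in the cortex, their r was negative, from -0.84 to -0.50, and 3 of the 6 passed by r.

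With the 8 principal cell markers (Aqp2, Aqp3, Aqp4, Avpr2, Scnn1b, Scnn1g, Fxyd4, and Hsd11b2) the 6 genes had r from 0.09 to 0.57, and 0 of the 6 passed. Aqp4 is in both this list and the medulla list. Erythroid markers, which bear on Slc14a1 because red cells carry its product, gave r = 0.01 for Slc14a1. None of the 6 passed with proximal tubule, endothelial, erythroid, adipocyte, leukocyte, or injured tubule markers by r, and by rho 1 relation passed, that of Slc6a6 with proximal tubule markers (rho = 0.64, permutation p = 0.00841, adjusted p = 0.0356, and r = 0.45, permutation p = 0.0313, adjusted p = 0.102). Nfat5 had r = -0.13 with medulla markers and r = 0.85 with endothelial markers (permutation p = 0.011, adjusted p = 0.0549, and rho = 0.86, permutation p = 0.00871, adjusted p = 0.0356), with r = 0.70 without the 2 farthest mice.

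**Figure D4:**
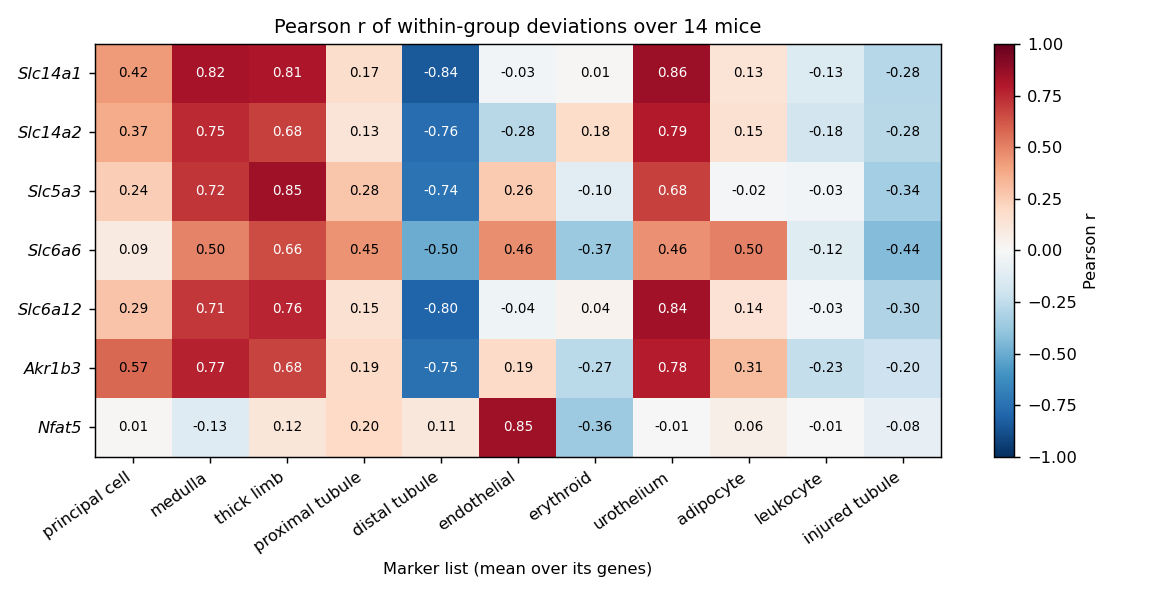
Each cell gives the Pearson r, over 14 mice, between the within-group deviations of a gene (row) and of the mean of a marker list (column), on a colour scale from -1 to 1. The medulla, thick limb, and urothelium columns are positive and the distal tubule column negative for the genes other than Nfat5, whose largest r is with the endothelial list.

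For each member the genes most like it were found among the 11396 genes whose mean FPKM reached 1, by the same r over 14 mice and with no test. Nearest to Slc14a1 were Tmem207 (r = 0.98), Npy (0.97), and Nccrp1 (0.96). Nearest to Slc14a2 were Prdx1 (0.95), the member Slc6a12 (0.95), and Nccrp1 (0.94), and nearest to Slc6a12 were Npy (0.95), Slc14a2 (0.95), and Spag5 (0.95). Pcsk6 (0.95), Esrrb (0.94), and Gpm6a (0.93) were nearest to Slc5a3, and Ptger1 (0.94), Fam101b (0.92), and Proser2 (0.92) to Akr1b3. Slc6a6 was nearest to Smg6 (0.98), Atmin (0.97), and Tor1aip2 (0.96), and Nfat5 to 4931406P16Rik (0.98), Zmynd11 (0.97), and Zranb2 (0.97).

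The first comparison asked which of these genes changed with diabetes in WT mice. Of the 7 members, 5 were called higher and 0 lower by limma at an adjusted p under 0.05, and over all tested genes 36.2% were called higher and 9.97% lower. The median log2 fold change was 1.75 over the members and 0.29 over all tested genes. Nfat5 rose by 0.99 on the log2 scale (SE 0.23, limma adjusted p = 0.00382) and Slc5a3 by 1.75 (SE 0.45, limma adjusted p = 0.00594), and both groups were fully separated for these 2 genes. Their exact permutation p was 0.0571 each, the smallest that 4 mice against 3 can give. The share of all tested genes with groups separated this way was not counted, in WT or in Cfb-/- mice. Relative to the shift of all genes the rises were 0.71 for Nfat5 and 1.47 for Slc5a3.

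The other called genes rested on wider or overlapping groups. Slc14a1 rose by 2.14 (SE 0.76, limma adjusted p = 0.0331), Slc6a12 by 2.92 (SE 1.04, limma adjusted p = 0.0339), and Slc6a6 by 0.67 (SE 0.25, limma adjusted p = 0.0414), and relative to all genes by 1.86, 2.63, and 0.39. The Slc6a12 change was 1.20 with 1 in place of 0.1 added to the FPKM, where it was not called, and 4.98 with 0.01. Slc14a2 had the largest difference, 3.17, but a 95% interval from -0.39 to 6.72 (limma adjusted p = 0.129), and Akr1b3 differed by 0.72 (limma adjusted p = 0.196). With median-ratio scaling 3 members (Slc5a3, Slc6a12, and Nfat5) were called, and with quantile normalization 3 (Slc5a3, Slc6a6, and Nfat5). All 7 differences stayed positive under both. Of all 14912 tested genes, 3391 were called higher with median-ratio scaling and 2366 with quantile normalization, against 5392 as deposited. Among all called genes the share called higher was 78.4% as deposited, 50.3% with median-ratio scaling, and 44.2% with quantile normalization.

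Nfat5 and Slc5a3 were called whichever single mouse was left out. The Nfat5 rise was 0.59 without WT control mouse 2 and 0.96 to 1.24 without any other mouse. The number of members called fell to 2 without WT diabetic mouse 2, WT diabetic mouse 3, or WT control mouse 3, and to 3 without WT control mouse 1. How many of all tested genes were called in these fits was not counted. Slc14a1 lost its call in all 4 of these fits, with differences of 1.67, 1.72, 1.69, and 2.22 and limma adjusted p-values of 0.0913, 0.0900, 0.126, and 0.0536. Slc6a12 lost its call in the same 4 fits, with differences of 2.46, 2.28, 2.56, and 2.56 and limma adjusted p-values of 0.0864, 0.0934, 0.104, and 0.0929. The call of Slc6a6 was lost without WT diabetic mouse 1 (0.70, limma adjusted p = 0.0636), 2 (0.59, 0.0953), or 3 (0.64, 0.0800) and without WT control mouse 2 (0.50, 0.192) or 3 (0.61, 0.111). Slc14a2 was called higher by 4.59 without WT diabetic mouse 1 (limma adjusted p = 0.0263).

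Markers of other parts of the kidney were counted in this same comparison. They are to be set against the 36.2% of all tested genes called higher and the 9.97% called lower. The urothelium list (Upk1a, Upk1b, Upk2, Upk3a, Krt5, and Krt14) was called higher for 6 of 6 genes, and its summed level was 0.690 to 46.3 FPKM in WT diabetic and 0.280 to 0.643 FPKM in WT control mice, where 1 to 4 of the 6 genes were listed at 0. The medulla list was called higher for 3 of 4 genes, namely Cryab, Ptgs1, and Wnt7b but not Aqp4, with sums of 86.0 to 187 FPKM against 20.96 to 74.9 FPKM. Of the 7 thick limb markers 5 were called higher, and of the 7 proximal tubule markers 5 were called lower. With median-ratio scaling and with quantile normalization, the calls were 6 and 4 for urothelium, 2 and 2 for medulla, 3 and 6 for thick limb, and 5 and 4 for proximal tubule markers, in the same directions. The 2 mice highest in urothelium markers, WT diabetic mice 2 and 3, were those highest in the members other than Nfat5, and without both of them Nfat5 was the 1 member called (0.95, limma adjusted p = 0.0285). Slc5a3 then differed by 1.11 (limma adjusted p = 0.0793) and Akr1b3 by -0.22. Leaving out the 2 highest mice lowers the WT diabetic mean of the members other than Nfat5 in any case. This fit therefore cannot separate urothelium content from any other trait of these 2 mice.

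With the urothelium score as a covariate Nfat5 was again the 1 member called (0.999, limma adjusted p = 0.0471), and 4 of the 7 members turned direction without being called, namely Slc14a1 (-0.25), Slc6a12 (-0.30), Akr1b3 (-0.57), and Slc14a2 (-1.75). The score itself differed between these groups, so adjusting for it shifts genes that vary with it in any case. The fit cannot separate urothelium content from diabetes. For deletion of Cfb the 6 urothelium genes differed by a median of -2.48 in diabetic and 2.21 in control mice, with 0 called, so the same limit holds there. Measured against the mean of the medulla markers, in place of the whole library, Slc14a2 was the 1 member called (1.72, limma adjusted p = 0.0216), Slc6a12 differed by 1.47 (limma adjusted p = 0.0545), and Nfat5 (-0.45), Slc6a6 (-0.77), and Akr1b3 (-0.73) differed in the other direction without being called. These 3 fits were chosen after the data had been seen, and the part of tissue makeup in the differences was not tested further. The share of all tested genes called in each of them was not counted.

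The second comparison asked the same of Cfb-/- mice. None of the 7 members was called, with 0 at an unadjusted limma p under 0.05, while 27.4% of all tested genes were called higher and 6.4% lower. The median log2 fold change was 0.17 over the members and 0.22 over all tested genes. Nfat5 was 0.44 higher (SE 0.23, limma adjusted p = 0.170) with separated groups and an exact permutation p of 0.0571, again the smallest possible, and it was called when the Cfb-/- groups were fitted alone (limma adjusted p = 0.0363). Slc6a12 differed by 0.61, Slc6a6 by 0.35, and Slc5a3 by 0.17, and Slc14a1 by -0.46, Akr1b3 by -0.60, and Slc14a2 by -1.65, with limma adjusted p-values from 0.307 to 0.795. The Slc5a3 difference was -0.07 with median-ratio scaling, and its 95% interval as deposited, from -0.78 to 1.12, holds both no change and a rise. Among all called genes the share called higher was 81.0% as deposited, 56.8% with median-ratio scaling, and 49.1% with quantile normalization.

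The marker lists were counted in the Cfb-/- mice too, and whether they moved differently between genotypes is not shown, since no gene was called for the interaction. Of all tested genes 27.4% were called higher and 6.4% lower in Cfb-/- mice, against 36.2% and 9.97% in WT mice. Some of the list counts lie near these shares. The urothelium list was called for 0 of 6 genes, with sums of 1.22 to 3.15 FPKM in diabetic and 0.607 to 8.89 FPKM in control mice. The medulla list was called higher for 1 of 4 genes (Ptgs1, a call that both other scalings lost), with sums of 105.4 to 126 FPKM against 73.6 to 126 FPKM. Thick limb markers were called higher for 3 of 7 (with median-ratio scaling 1 higher and 1 lower, with quantile normalization 2 higher) and proximal tubule markers lower for 6 of 7. Of the other lists, given as counts in WT and then in Cfb-/- diabetic mice, leukocyte markers were called higher for 6 and 4 of 7 genes, endothelial markers for 4 and 4 of 6, injured tubule markers for 5 and 5 of 5, principal cell markers for 2 and 0 of 8, and distal tubule markers for 0 and 1 of 4. Adipocyte markers were called higher for 4 and 0 of the 4 tested, with sums of 7.02 to 30.7 FPKM in WT diabetic mice and at most 9.44 FPKM in any other mouse, and erythroid markers lower for 2 and 4 of the 5 tested. With median-ratio scaling principal cell markers were called higher for 0 and lower for 1 in each genotype, distal tubule markers were lower for 1 in WT and called for 0 in Cfb-/- mice, endothelial markers were higher for 2 and 3, and erythroid markers lower for 4 and 4. With quantile normalization principal cell markers were higher for 1 in WT and lower for 1 in Cfb-/- mice, distal tubule markers were higher for 1 in each, and adipocyte markers were higher for 2 and 0. The part of these lists in the member values was not tested.

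**Figure D5:**
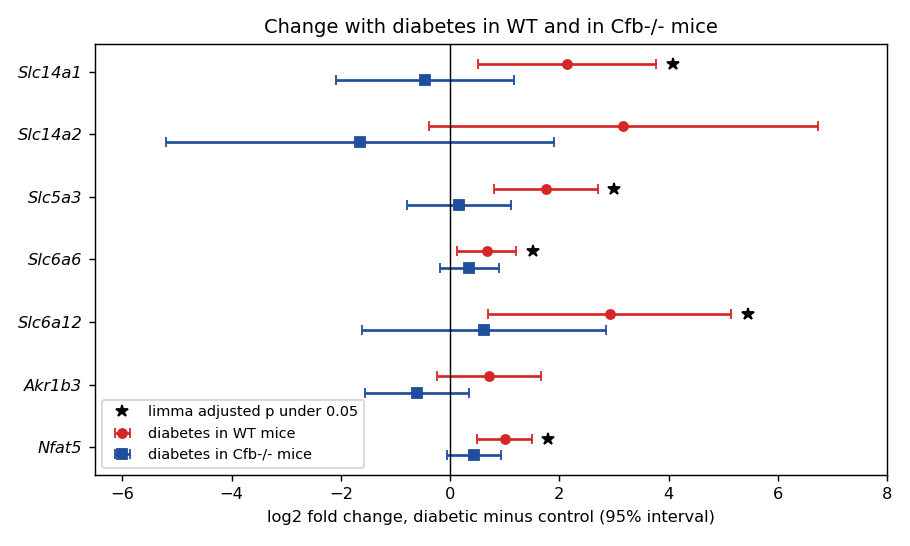
Points give the log2 fold change of each gene, diabetic minus control, in WT (circles) and Cfb-/- mice (squares), with 95% intervals from limma, and stars mark a limma adjusted p under 0.05. Stars stand beside 5 of the 7 WT values and beside 0 of the 7 Cfb-/- values, and the intervals of each gene overlap between the genotypes.

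Whether diabetes changed the members differently in the 2 genotypes was tested directly. All 7 interaction estimates, Cfb-/- change minus WT change, were negative, with a median of -1.58 against -0.01 over all tested genes. None was called by limma, as was none of all tested genes (0% called, 861 genes at an unadjusted p under 0.05). Slc5a3 (-1.58) and Slc14a1 (-2.61) were the 2 members with an unadjusted p under 0.05, and the limma adjusted p was 0.779 for both. With the urothelium score as a covariate 5 of the 7 estimates were positive and not called, namely Slc6a12 (1.90), Slc14a2 (1.60), Slc14a1 (0.52), Akr1b3 (0.35), and Slc6a6 (0.22). Measured against the medulla markers, Slc14a2 had a called interaction of -3.72 (limma adjusted p = 0.0205), with the share of all tested genes called there not counted. The difference between 5 calls and 0 calls is therefore not shown to be a difference between genotypes.

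Deletion of Cfb was compared in diabetic and in control mice. In diabetic mice 0 of the 7 members were called, and 0.00671% of all tested genes were, which is Cfb alone. At an unadjusted limma p under 0.05 there were 448 genes, of which 1 was a member. That member was Akr1b3, lower by a log2 difference of -0.99 (SE 0.41, unadjusted limma p = 0.0298), with overlapping groups and an exact permutation p of 0.171. The other 6 differences ran from -1.27 (Slc14a2) to 0.06 (Nfat5). With the urothelium score as a covariate 5 of them turned to higher in Cfb-/- mice, Slc14a2 (2.33), Slc6a12 (1.58), Slc14a1 (0.80), Slc5a3 (0.50), and Slc6a6 (0.17). The same 5 turned without the 2 WT diabetic mice highest in urothelium markers, with Slc14a2 at 1.09. None was called in either fit. Those 2 mice also hold the 2 highest values of these 5 genes, so leaving them out moves the differences upward in any case. The 95% interval of Nfat5, -0.40 to 0.53, was the narrowest of the 7.

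In control mice 0 of the 7 members were called, and again 0.00671% of all tested genes were called, Cfb alone. All 7 members had a higher mean in Cfb-/- than in WT control mice, with a median difference of 1.26 against 0.06 over all tested genes, but not in every fit. Measured against medulla markers Slc6a6 (-0.73), Akr1b3 (-0.59), and Nfat5 (-0.29) turned direction, with the urothelium score Slc6a6 (-0.052), Slc6a12 (-0.33), and Akr1b3 (-0.41) did, and against principal cell markers Slc6a6 (-0.15) and Akr1b3 (-0.013). Slc5a3 differed by 1.26 (SE 0.48, limma adjusted p = 0.250), Nfat5 by 0.62 (SE 0.25, limma adjusted p = 0.253), and Slc14a2 by 3.55 (SE 1.78, limma adjusted p = 0.306), and Slc5a3 and Nfat5 were the 2 members with an unadjusted p under 0.05. Among all tested genes 2614 had an unadjusted p under 0.05. Each of the 7 genes overlapped between these groups, and no exact permutation p fell under 0.2, where 0.1 is the smallest that 3 mice against 3 can give. Without WT control mouse 1, Nfat5 was called (0.86, limma adjusted p = 0.0422). The urothelium sums overlapped between these groups, at 0.607 to 8.89 FPKM in Cfb-/- and 0.280 to 0.643 FPKM in WT mice. Of the 6 urothelium genes 0 were called.

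Genes around these pathways were read from lists drawn up by function, to be set against the 36.2% and 27.4% of all tested genes called higher with diabetes in WT and Cfb-/- mice. The 4 calcineurin-regulated relatives of Nfat5 were all called higher in WT diabetic mice, Nfatc2 by 1.49, Nfatc4 by 1.05, Nfatc1 by 0.68, and Nfatc3 by 0.54, and 3 of the 4, all but Nfatc3 (0.24), were called higher in Cfb-/- diabetic mice. With median-ratio scaling 2 of the 4 were called in WT and 1 in Cfb-/- mice, with quantile normalization 1 and 0, and Nfatc3 had a value just under 0 in Cfb-/- mice under both. Of 8 genes known to rise under hypertonic stress, 5 were called higher in WT and 3 in Cfb-/- mice, and 0 lower in either. With median-ratio scaling the counts were 3 and 3, and with quantile normalization 4 and 3, with 1 called lower in Cfb-/- mice (Hspa4l). Slc38a2, a neutral amino acid transporter gene, rose by 1.93 and 1.04, Sgk1, a kinase that acts on sodium transport, by 1.86 and 1.73, and S100a4, a calcium-binding protein gene, by 1.47 and 1.99. Sgk1 and S100a4 also respond to other stimuli.

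Genes other than the members that make, break down, or transport osmolytes moved in both directions. Of 14 such genes 3 were called higher and 1 lower in WT diabetic mice, and 3 higher and 2 lower in Cfb-/- diabetic mice. With median-ratio scaling these were 2 and 3 in WT and 2 and 6 in Cfb-/- mice, where the calls of Isyna1 were lost, and with quantile normalization 4 and 1 in WT and 3 and 1 in Cfb-/- mice. Miox, which breaks down myo-inositol in the proximal tubule, fell by 2.12 in WT and by 1.71 in Cfb-/- mice on the log2 scale, from 2110 to 3241 FPKM in WT control mice to 514 to 759 FPKM in WT diabetic mice. Isyna1, which makes myo-inositol, rose by 0.71 and 0.70, Impa2, which acts in the same route, by 0.94 and 0.84, and Gdpd5, which breaks down glycerophosphocholine, by 1.32 and 1.37. Sord, which turns sorbitol into fructose, differed by -0.32 and -0.42 and was not called. Aldh7a1, which can oxidize betaine aldehyde, was called lower in Cfb-/- mice (-0.40) and differed by -0.34 in WT mice.

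Of the 7 genes of urea formation and of aquaglyceroporins, 5 were tested. Arg2, which splits arginine into urea and ornithine, rose by 3.18 in WT and by 1.99 in Cfb-/- mice. Ass1, which makes argininosuccinate, fell by 1.38 and by 1.04, and Asl, the next enzyme, fell by 0.94 in WT mice and differed by -0.26 in Cfb-/- mice. The aquaglyceroporin gene Aqp7 rose by 0.51 and 0.47, calls that both other scalings lost, and Aqp3, of the collecting duct, differed by 0.06 and -0.19. In each of these lists the median fold change was between -0.19 and 1.31 in both genotypes, and no list gene was called for deletion of Cfb in diabetic or in control mice.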

How the data were processed

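RNA sequencing of kidney from 14 mice was analysed from the table of each mouse. Per the labels, stranded mRNA libraries were read from both ends, and the submitters' processing notes name Trimmomatic, HISAT2, Cufflinks, HTSeq, DESeq, and GRCm38.p6, with no versions or roles. The authors deposited FPKM values per gene, that is, fragments adjusted for transcript length and for the fragments mapped. Read counts were not used here, so the count test of the study could not be run, and how reads shared by genes were counted is not given in the sources used here. Mice were grouped by sample title.

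From these values log2(FPKM + 0.1) was computed, with no added scaling. The 14 mice entered 1 fit with 4 group means in limma 3.58.1 with a mean-variance trend (R 4.3.3). Genes that reached 0.1 FPKM in 3 or more mice were kept, and p-values were adjusted (Benjamini-Hochberg) over all 14912 of them, with calls at an adjusted p under 0.05. A fold change is on this log2 scale, which understates the change of low genes. The 4 pairs of groups and the interaction of genotype with diabetes were compared. Exact permutation tests, two-sided, were added for single members, and relations were tested with two-sided permutation tests within groups (Python 3.11.15, numpy 2.4.6, scipy 1.17.1, pandas 2.3.3, matplotlib 3.10.9). The fit was tested on simulated data. The samples are separate mice, which the study describes as matched for age and sex and the WT mice as littermates of the Cfb-/- mice. Which mouse was a littermate of which is not given in the sources used here, so no litter entered the fit.

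The members, the companion lists (osmolyte enzymes and other osmolyte transporters, hypertonic stress, urea formation and aquaglyceroporins, NFAT family), and the marker lists were chosen with earlier results of these data known. A gene of the medulla list is not reported here and was left out of the list after results with it were known. Named are all members, the called genes with the largest changes of each companion list (up to 3) and genes of short lists, the markers that define a tissue part, the 3 genes most like each member, and Cfb. Hspa4l, Sord, Aldh7a1, Aqp3, Asl, and Mrps6 were named after their values were seen. The alternatives were other pseudocounts, filters, and scalings, a fit of only the groups compared, a block for the replicate number, values measured against principal cell markers, and leaving out each mouse. Fits against medulla markers, with the urothelium score, and without the 2 mice highest in it were added after the data had been seen. Identity of pairs was checked, and 0 pairs of mice had identical values. No protein sequences were used.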

Additional observations from a re-analysis of the deposited data

How the results depend on the processing

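In WT mice the count of members called higher with diabetes was 5, and 4 with 1 added to the FPKM, 5 with 0.01 added, 5 with a filter at an FPKM of 1, 4 with the compared groups alone, 3 with no filter, 3 with median-ratio scaling, 3 with quantile normalization, 3 against principal cell markers, 1 against medulla markers, 1 with the urothelium score as covariate, 1 without the 2 mice highest in it, and 2 to 5 leaving out each mouse in turn. In Cfb-/- mice the count was 0, and 1 with the compared groups alone (Nfat5, higher). For deletion in control mice it was 0, and 0 to 1 when each mouse was left out, and for the interaction 0, and 1 against medulla markers (Slc14a2). The count stayed at 0 for deletion in diabetic mice under all alternatives run. The share of all tested genes called was counted as deposited, with median-ratio scaling and with quantile normalization, and not under the other alternatives. The cause of these changes in the member counts was not tested.

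With the replicate number as a block, 4 members were called in WT mice (Slc14a1 lost its call, adjusted p = 0.0587 by limma) and 0 in the other comparisons. The numbers were not taken as pairs, because 3 of 19 same-numbered pairs of mice had deviations correlated above 0.1 (range -0.388 to 0.243).

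Of 693 fold changes over all alternatives, 611 kept direction and side of the threshold, 33 lost and 5 gained a call, and 44 turned direction. Of the last, with the urothelium score, diabetes in WT gave Slc14a1 -0.25, Slc14a2 -1.75, Slc6a12 -0.30, and Akr1b3 -0.57, diabetes in Cfb-/- mice Slc14a1 0.27, deletion in diabetic mice Slc14a1 0.80, Slc14a2 2.33, Slc5a3 0.50, Slc6a6 0.17, and Slc6a12 1.58, deletion in control mice Slc6a6 -0.052, Slc6a12 -0.33, and Akr1b3 -0.41, and the interaction Slc14a1 0.52, Slc14a2 1.60, Slc6a6 0.22, Slc6a12 1.90, and Akr1b3 0.35. Against medulla markers, diabetes in WT gave Slc6a6 -0.77, Akr1b3 -0.73, and Nfat5 -0.45, diabetes in Cfb-/- mice Slc5a3 -0.18, deletion in diabetic mice Slc6a6 0.045, deletion in control mice Slc6a6 -0.73, Akr1b3 -0.59, and Nfat5 -0.29, and the interaction Slc6a6 0.77 and Nfat5 0.54. Without the 2 WT diabetic mice highest in urothelium markers, diabetes in WT gave Akr1b3 -0.22, and deletion in diabetic mice Slc14a1 0.38, Slc14a2 1.09, Slc5a3 0.32, Slc6a6 0.035, and Slc6a12 0.85. Against principal cell markers, deletion in control mice gave Slc6a6 -0.15 and Akr1b3 -0.013 and the interaction Slc6a6 0.012, and with median-ratio scaling diabetes in Cfb-/- mice gave Slc5a3 -0.072. Leaving out each mouse, diabetes in Cfb-/- mice ranged from -0.97 to 0.085 for Slc14a1, from -0.155 to 0.67 for Slc5a3, and from -0.20 to 1.54 for Slc6a12, and deletion in control mice from -0.063 to 0.53 for Slc6a6. The median correlation among the members other than Nfat5 ranged from 0.66 to 0.79.

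Depth limits the members near the floor: Slc14a1 was under 0.1 FPKM in 1 mouse, Slc14a2 in 1, and Slc6a12 in 3, and without read counts their counting error cannot be given.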

Other observations

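Other genes of the hypertonic stress list are given by mouse, as values with no test. Ranbp3l, a gene known to respond to tonicity in the kidney, was at 18.6 and 17.2 FPKM in WT diabetic mice 2 and 3, at 16.5 FPKM in Cfb-/- control mouse 3, and at 2.34 to 9.99 FPKM in the other 11 mice. It was not called in either diabetes comparison (limma adjusted p = 0.153 in WT and 0.46 in Cfb-/- mice). The inducible HSP70 genes were highest in other mice. Hspa1a was at 103 and Hspa1b at 161 FPKM in Cfb-/- control mouse 2, and at 37.3 and 60.3 FPKM in Cfb-/- control mouse 3, against 3.13 to 10.7 and 4.55 to 33.9 FPKM in the other 12 mice. Within WT diabetic mice they were higher in mice 2 and 3, Hspa1a at 9.70 and 10.3 FPKM against 5.23 and 5.84 FPKM in mice 1 and 4, and Hspa1b at 28.8 and 33.9 FPKM against 10.95 and 13.3 FPKM. Cfb-/- control mouse 2 was low in the members, with a mean rank of 3.33 over the genes other than Nfat5.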
